A study of Homo sapiens with 6 samples.

Results

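The nucleic acid sensors and interferon signalling factors are 9 genes: the sensors RIGI, IFIH1 and TLR3, the transcription factors IRF3, IRF7, IRF1, IRF9 and STAT2, and the cytokine IFNB1. They were chosen by symbol, with earlier results of these data known. Every probe set that the platform annotation assigns to 1 of them alone was taken. This gave 15 probe sets for 8 of the 9 genes, out of 54613 probe sets and 19775 genes on the array. STAT2 was not analysed here. MCF-10A, a non-transformed human mammary epithelial line, was infected with retrovirus carrying Crb3 (CRB3, a polarity protein of the apical membrane) or with pNG vector control. The sample titles name pNG for the control alone. The paper describes CRB3 constructs obtained in pNG and then moved to another retroviral vector. Both populations were selected with puromycin after infection, per the sample records. Whether virus dose and vector backbone matched between the groups is not stated in the sources used here, and their part in the results was not tested. RNA came from subconfluent, proliferating monolayers in normal growth medium, with 3 CRB3-expressing and 3 vector control samples on 1 array each. The cells were stable populations expressing a tagged protein, and no source used here says that the replicates were infected apart from each other: p-values here cover the spread of these samples alone.

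Cells recognize foreign or misplaced RNA through sensors, of which RIGI and IFIH1 lie in the cytosol and TLR3 in endosomes. Adaptors and kinases then switch on IRF3 and IRF7, which drive transcription of type I interferons such as IFNB1. Secreted interferon acts through its receptor on a complex that holds STAT2 and IRF9 and binds the interferon-stimulated response element of many genes, several sensors and IRF7 among them. IRF1, itself induced by interferon, binds related sequences.

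Values per array are given in the order of the replicate numbers. They are log2 values after Robust Multichip Average (RMA) normalization, and limma was fitted to all probe sets with p-values adjusted across the array. Calls needed an adjusted p under 0.05 together with a change of more than 1.5-fold, which is 0.58 on the log2 scale. CRB3 averaged 12.11 ± 0.10 in CRB3-expressing cells, against 7.78 ± 0.17 in vector control cells (SD, n = 3 each). Array medians lay between 5.84 and 5.88, and arrays correlated over probe sets at a Pearson's r of 0.997 to 0.998 within groups and 0.994 to 0.996 across groups. The basal keratin KRT5 stood at 13.58 in CRB3-expressing cells, against 13.62 in vector control cells, while KRT14 stood at 10.89, against 9.06. Of the marker lists, epithelium had 2 of 6 genes called (CDH1 and KRT8, higher by 1.10 and 1.08 on the log2 scale). Basal epithelium had 1 of 5 (KRT14, higher by 1.83) and fibroblasts 1 of 6 (DCN, lower by limma, with a log2 fold change of -0.76). Of all genes, 1.43% were called higher and 0.465% lower. An adjusted p under 0.05 (limma), with no fold threshold, was reached by 4 epithelial, 2 basal, 1 luminal and 1 fibroblast genes. Means of the 6 fibroblast genes ran from 3.48 to 8.02 in CRB3-expressing cells and from 3.38 to 8.01 in vector control cells. None of 5 leukocyte, 4 endothelial, 3 plasmacytoid dendritic cell or 4 luminal hormone-receptor genes was called by limma, and at an unadjusted p under 0.05 only 2 luminal genes were past the threshold. Of these 2, GATA3 also passed the adjusted p but not the fold threshold (log2 fold change 0.36, limma adjusted p = 0.0252). The part of these marker changes in the results below was not tested.

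Most members had small positive differences, and few passed the test. RIGI was called higher on 1 of its 3 probe sets, and IRF7 passed the adjusted p but not the fold threshold. IRF9, both probe sets of IRF1, 1 of the 3 of IFIH1 and RIGI 222793_at were above vector control on every array without passing the test. Such separation held for 7 of the 15 member probe sets, against 11.1% of all probe sets. All probe sets of TLR3, IRF3 and IFNB1 had overlapping groups. In all, 1 of the 15 member probe sets was called higher, against 0.948% of all probe sets, and 0 were called lower (limma; 0 also at an unadjusted p under 0.05), against 0.363% of all probe sets. These probe sets, a few per gene, are not independent of each other. In bulk RNA, fewer expressing cells and less RNA per cell cannot be told apart.

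**Figure D1:**
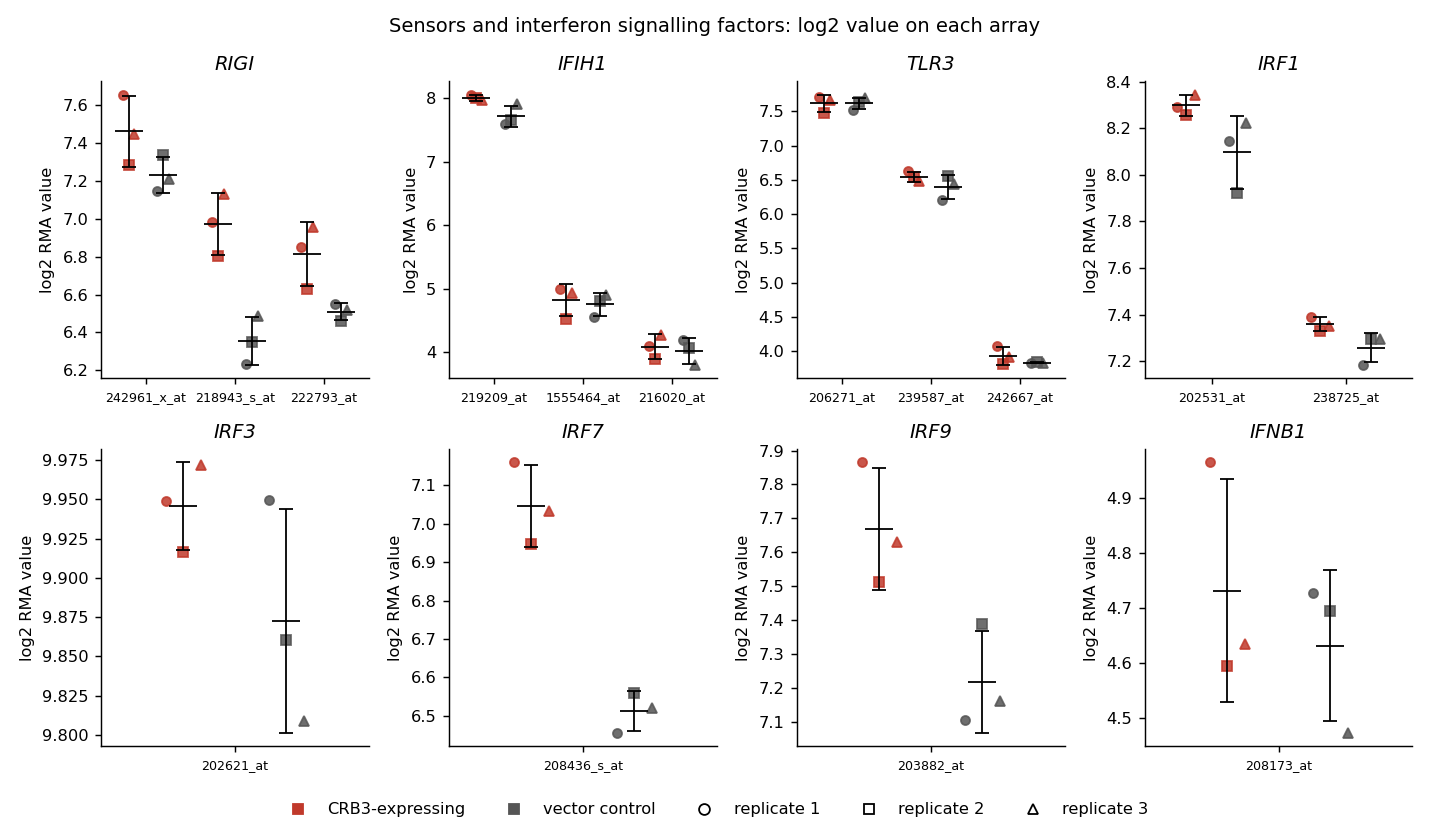
Log2 RMA value of each of the 15 member probe sets on the 3 CRB3-expressing arrays (red) and the 3 vector control arrays (grey), with the symbol shape giving the replicate. Horizontal bars are group means and whiskers are 1 SD (n = 3), and each panel has its own vertical scale. The CRB3-expressing points of 7 probe sets, among them IRF7, IRF9 and RIGI 218943_s_at, lie above all the vector control points.

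Among the sensors, RIGI, a helicase that detects short RNA with a triphosphate end, lies at chr9:32455302-32526196 (GRCh38.p14). Its probe set 218943_s_at had log2 values of 6.98, 6.80 and 7.13 in CRB3-expressing cells, against 6.23, 6.35 and 6.49 in vector control cells. The groups did not overlap, and the lowest CRB3-expressing array stood above the highest vector control array. The means were 6.97 ± 0.16 and 6.36 ± 0.13 for CRB3-expressing and vector control cells (SD, n = 3 each), a 1.53-fold difference that was called (log2 fold change 0.62, SE 0.098, limma adjusted p = 0.00946). The call rests close to the fold threshold: without CRB3-expressing replicate 3 the log2 fold change was 0.54, and without vector control replicate 1 it was 0.55, both under that threshold. With the ordinary variance of each probe set in place of limma's empirical Bayes, the adjusted p was 0.147.

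The other RIGI probe sets gave smaller differences. On 222793_at the log2 values were 6.85, 6.63 and 6.96 in CRB3-expressing cells, against 6.55, 6.46 and 6.52 in vector control cells, again without overlap (log2 fold change 0.30, SE 0.088, limma adjusted p = 0.116). The brightest of the 3, 242961_x_at, had 7.65, 7.28 and 7.44 in CRB3-expressing cells, against 7.15, 7.33 and 7.21 in vector control cells. Here CRB3-expressing replicate 2 lay below vector control replicate 2, and the log2 fold change was 0.23 (SE 0.099, limma adjusted p = 0.294). The suffix _x_at marks probe sets that may also bind other transcripts, and _s_at those matching several transcripts. All 3 RIGI probe sets were higher on average in CRB3-expressing cells, and the mean over them differed by 0.38 (SE 0.077, limma adjusted p = 0.0191), under the fold threshold.

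IFIH1, which encodes the long double-stranded RNA sensor MDA5, lies at chr2:162267074-162318684. On 219209_at its log2 values were 8.06, 7.998 and 7.97 in CRB3-expressing cells, against 7.59, 7.66 and 7.91 in vector control cells. The groups were separate by a narrow margin, since vector control replicate 3 came close to the CRB3-expressing arrays. The log2 fold change was 0.29 (SE 0.088, limma adjusted p = 0.134). The other IFIH1 probe sets were dim, with CRB3-expressing means of 4.82 (1555464_at) and 4.09 (216020_at), against vector control means of 4.75 and 4.02. Their groups overlapped, with log2 fold changes of 0.066 (limma adjusted p = 0.863) and 0.069 (limma adjusted p = 0.836).

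TLR3, the endosomal receptor for double-stranded RNA, lies at chr4:186069156-186088073. Its brightest probe set, 206271_at, had log2 values of 7.71, 7.47 and 7.67 in CRB3-expressing cells, against 7.53, 7.64 and 7.69 in vector control cells. The highest and the lowest of the 6 arrays were both CRB3-expressing. The log2 fold change was -0.00078 (SE 0.082, 95% interval -0.19 to 0.19, limma adjusted p = 0.998). Both other probe sets overlapped between groups: 239587_at had a log2 fold change of 0.15 (SE 0.093, limma adjusted p = 0.486) and 242667_at of 0.11 (SE 0.076, limma adjusted p = 0.559). No interval of a TLR3 probe set reached a 1.5-fold change.

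Of the 2 factors switched on by sensing, IRF3 is present in most resting cells and is activated by phosphorylation, which an RNA measurement does not read. The gene lies at chr19:49659572-49665857. Its log2 values on 202621_at were 9.95, 9.92 and 9.97 in CRB3-expressing cells, against 9.95, 9.86 and 9.81 in vector control cells. Vector control replicate 1 lay among the CRB3-expressing arrays, and the log2 fold change was 0.073 (SE 0.064, 95% interval -0.072 to 0.22, limma adjusted p = 0.638).

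IRF7, which amplifies interferon production and is itself induced by interferon, lies at chr11:612555-615950. Its 1 probe set, 208436_s_at, had log2 values of 7.16, 6.95 and 7.03 in CRB3-expressing cells, against 6.46, 6.56 and 6.52 in vector control cells. The gap between the groups was wider than the range within either. The means were 7.05 ± 0.11 in CRB3-expressing cells, against 6.51 ± 0.052 in vector control cells (SD, n = 3 each), a 1.45-fold difference (log2 fold change 0.53, SE 0.073, 95% interval 0.37 to 0.70, limma adjusted p = 0.00401). It passed the p threshold and missed the fold threshold. Across the alternative settings the log2 fold change stayed between 0.48 and 0.58, with adjusted p between 0.00122 and 0.0714.

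IRF1, which drives antigen presentation and antiviral genes, lies at chr5:132481609-132490773. On 202531_at its log2 values were 8.29, 8.26 and 8.34 in CRB3-expressing cells, against 8.14, 7.92 and 8.22 in vector control cells. The groups did not overlap, but the margin was small against the spread of the vector control arrays (log2 fold change 0.20, SE 0.085, limma adjusted p = 0.287). The second probe set, 238725_at, was likewise separate, at 7.39, 7.33 and 7.35 in CRB3-expressing cells, against 7.19, 7.30 and 7.29 in vector control cells (log2 difference 0.099, SE 0.063, limma adjusted p = 0.496).

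IRF9, the DNA-binding subunit of the interferon-activated STAT complex, lies at chr14:24161265-24166565. On 203882_at its log2 values were 7.86, 7.51 and 7.63 in CRB3-expressing cells, against 7.11, 7.39 and 7.16 in vector control cells. The groups were separate, and the spread was large in both, with SDs of 0.18 and 0.15 in CRB3-expressing and vector control cells. The 1.37-fold difference did not pass the test (log2 fold change 0.45, SE 0.11, 95% interval 0.21 to 0.69, limma adjusted p = 0.0605). Across the alternative settings its adjusted p lay between 0.0181 and 0.275, and it was called in none of them. A further probe set that the annotation assigns to both RNF31 and IRF9 was not counted as a member.

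IFNB1, the type I interferon made by epithelial cells and fibroblasts, lies at chr9:21077104-21077942. Its log2 values on 208173_at were 4.96, 4.60 and 4.64 in CRB3-expressing cells, against 4.73, 4.69 and 4.47 in vector control cells. Every value was below the median of its array, and the groups overlapped (log2 fold change 0.10, SE 0.11, 95% interval -0.15 to 0.35, limma adjusted p = 0.722). The deposited values carry no detection calls, so whether this signal is above background was not established.

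**Figure D2:**
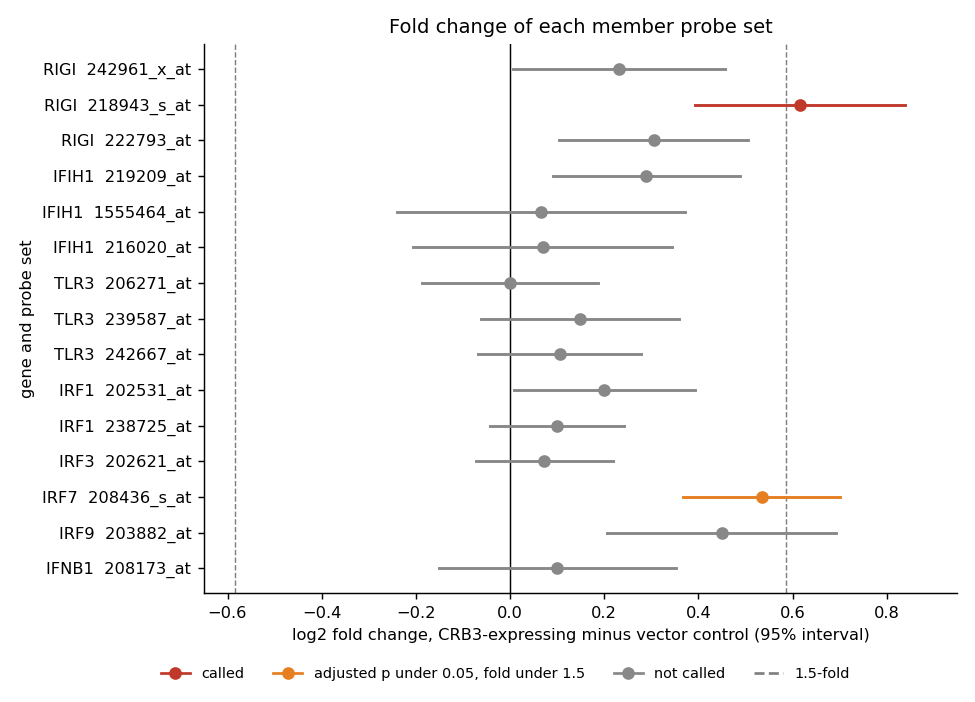
Difference in log2 value, CRB3-expressing over vector control, for each of the 15 member probe sets with its 95% interval from limma, with dashed lines at a 1.5-fold change in either direction. RIGI 218943_s_at (red, 0.62) was called, IRF7 (orange, 0.53) passed the adjusted p alone, and the intervals of 12 probe sets end below a 1.5-fold rise.

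Read over the members, the fold changes leaned to 1 side. The members were chosen with earlier results of these data known, so the shares set beside them are a description and not a test. Of the 15 probe sets, 14 had a log2 fold change above 0, with TLR3 206271_at at -0.00078 as the exception, against 50.4% of all probe sets. The 95% intervals of 7 lay above 0, which is an unadjusted p under 0.05, against 8.15% of all probe sets. All CRB3-expressing arrays were above all vector control arrays in 7 of the 15, against 11.1% of all probe sets. With each gene taken by its brightest probe set, this held for 4 of 8 members (IFIH1, IRF1, IRF7 and IRF9), against 14.5% of all genes. On that choice 0 of 8 member genes were called in either direction, while 1.43% of all genes were called higher and 0.465% lower. IRF7 alone had an adjusted p under 0.05 with a higher value, against 3.37% of all genes, and 5 of 8 members were higher at an unadjusted p under 0.05, against 10.4% of all genes (limma). The median log2 fold change was 0.22 over the 8 member genes and 0.0066 over all genes. RIGI is among the uncalled genes here because its brightest probe set is 242961_x_at.

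The members also varied together among the CRB3-expressing arrays. Replicate 2 of the CRB3-expressing cells was below its group mean on all 15 member probe sets and was the lowest of its group on 13, with a median deviation of -0.14. Over all 54613 probe sets that array was below its group mean on 49.9% and lowest on 33.7%. Replicate 1 of these cells was the highest on 10 of the 15, against 32.1% of all probe sets. Vector control replicate 1 was the lowest of its group on 9 of the 15, with a median deviation of -0.073. CRB3-expressing replicate 2 was the lowest of its group for RIGI 218943_s_at and IRF7, so leaving it out can only raise their differences. Without it the log2 fold change was 0.70 for RIGI 218943_s_at (limma adjusted p = 0.0103) and 0.584 for IRF7 (limma adjusted p = 0.00858). The IRF7 value was still under the fold threshold of 0.585 and was not called. Leaving out each array in turn gave 0.54 to 0.70 for this RIGI probe set and 0.478 to 0.584 for IRF7.

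**Figure D3:**
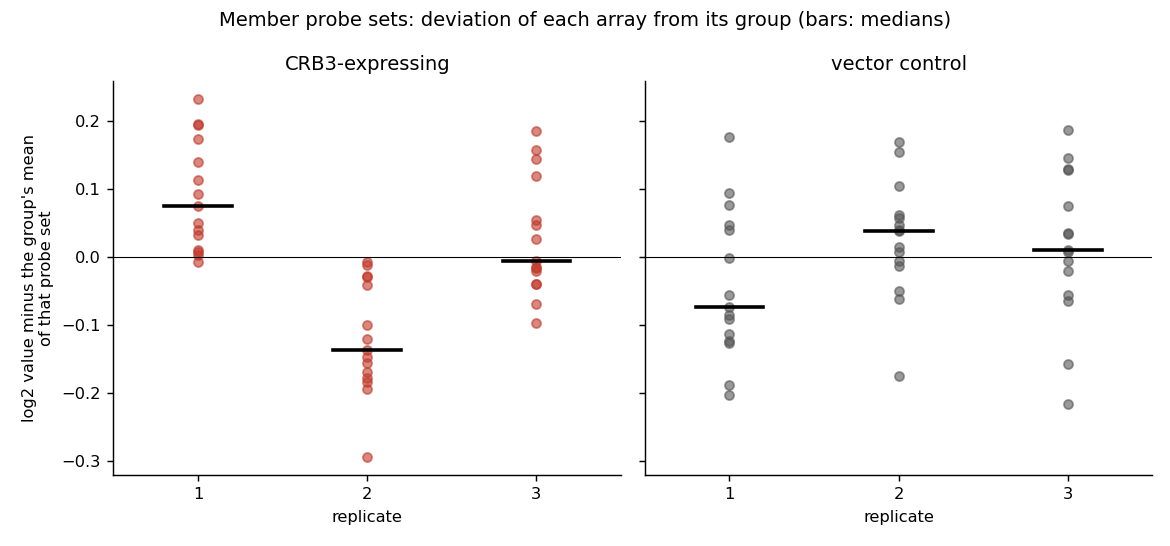
Log2 value of each of the 15 member probe sets on each array minus the mean of its own group for that probe set, for the CRB3-expressing arrays (left) and the vector control arrays (right). Black bars are medians over the 15 probe sets, and all the points of CRB3-expressing replicate 2 lie below 0, with a median of -0.14.

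IRF7, the member gene with the smallest p on its brightest probe set, was taken for a search of like patterns over the 6 arrays. RAP1GAP2, EMP1 and the antiviral effector IFIT2 had the highest Pearson's r with it, 0.997 each. The 6 arrays form 2 groups, so any gene with a clear step between them scores high, and 459 genes had r over 0.95 with IRF7. The log2 fold changes were 0.37 for RAP1GAP2, 0.43 for EMP1 and 0.61 for IFIT2.

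The regulatory letters near the start of the members can be read from the RefSeq promoters of GRCh38.p14, which hold 250 bases before and 50 after each start. Of the 8 measured members 6 were searched on both strands for the interferon-stimulated response element as GAAANNGAAA and for the gamma-activated sequence, bound by STAT factors, as TTCNNNGAA. These occur in 3.57% and 7.66% of 35116 promoters. IRF3 and IRF7 were not searched. IFIH1 had 3 matches to the response element, of which those at -159 to -150 and -153 to -144 from the start overlap each other and lie on the opposite strand, and that at -21 to -12 lies on the same strand. TLR3 had 1 response element match on the opposite strand, from -4 to 6, and gamma-activated matches at -178 to -170 and -50 to -42. IRF1 had 1 gamma-activated match at -124 to -116 and IRF9 had 1 at -63 to -55. IFNB1 had 1 gamma-activated match, and RIGI had 0 matches to either. The motifs share the letters GAA, but no match of one overlapped a match of the other in these promoters. A match is a description of letters, not a bound site. The windows below run in the direction of the gene, with the matches in capitals, and are shown so that the matched letters of these members can be set beside their fold changes: IFIH1 at chr2:162318685-162318855 (minus strand), TLR3 at chr4:186068966-186069161 (plus strand), IRF1 at chr5:132490877-132490909 (minus strand) and IRF9 at chr14:24161190-24161222 (plus strand).
IFIH1: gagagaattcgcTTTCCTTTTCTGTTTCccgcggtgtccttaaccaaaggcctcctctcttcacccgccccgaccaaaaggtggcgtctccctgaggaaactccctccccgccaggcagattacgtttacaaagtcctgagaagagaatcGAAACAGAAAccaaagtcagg
TLR3: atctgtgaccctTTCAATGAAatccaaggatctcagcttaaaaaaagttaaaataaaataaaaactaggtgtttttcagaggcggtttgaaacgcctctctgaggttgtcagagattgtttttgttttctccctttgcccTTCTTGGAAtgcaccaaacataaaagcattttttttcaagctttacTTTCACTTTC
IRF1: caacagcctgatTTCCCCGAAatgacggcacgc
IRF9: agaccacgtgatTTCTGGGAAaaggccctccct
On their brightest probe sets, IFIH1 and TLR3, the members with response element matches, had log2 fold changes of 0.29 and -0.00078, and RIGI, with no match in its window, had 0.23, none of them called. On the other probe sets the values were 0.066 and 0.069 for IFIH1, 0.15 and 0.11 for TLR3, and 0.30 and 0.62 for RIGI. Of these only the last, RIGI 218943_s_at, was called. IRF9, IRF1 and IFNB1, with gamma-activated matches alone, had 0.45, 0.20 and 0.10 on their brightest probe sets. IRF1 238725_at had 0.099, and none of these was called. IRF7, at 0.53, was not searched. Whether matches and fold changes go together was not tested.

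Around the members, 123 other pathway genes were measured, of which 10 were called higher and 1 lower, with a median log2 fold change of 0.051. Of all 19775 genes, 1.43% were called higher and 0.465% lower, with a median of 0.0066. At an unadjusted p under 0.05 (limma), 10.4% of all genes were higher and 1660 of the 19775 lower. The lists, like the members, were chosen with earlier results of these data known. Of the 16 other nucleic acid sensors and cofactors, 0 were called higher and 1 lower by limma, and 2 were higher and 2 lower at an unadjusted p under 0.05. The 1 was IFI16, a sensor of DNA: on 206332_s_at its log2 values were 10.38, 10.28 and 10.33 in CRB3-expressing cells, against 11.10, 11.03 and 11.17 in vector control cells. IFI16 fell by 0.77 on the log2 scale (SE 0.066, limma adjusted p = 0.000259), and its other probe sets fell by 0.66 and 0.63 and were called as well. Its direction was opposite to that of RIGI. DDX60, a helicase linked to RIGI signalling and named after its values were seen, was 1.49-fold higher, just under the fold threshold (limma adjusted p = 0.0142).

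None of the 13 adaptors and kinases was called by limma, while 5 were higher and 3 lower at an unadjusted p under 0.05. Of all genes, 10.4% were higher at that p and 1660 of 19775 lower. MYD88, the adaptor of most Toll-like receptors but not of TLR3, had log2 values of 10.33, 10.38 and 10.29 in CRB3-expressing cells, against 9.80, 9.86 and 9.83 in vector control cells. The arrays were well separated, and the 1.42-fold difference missed the fold threshold (log2 fold change 0.50, SE 0.061, limma adjusted p = 0.0019). IKBKE, a kinase of IRF3 and IRF7, had a log2 fold change of 0.24 (limma adjusted p = 0.0917). TBK1, the other kinase of these factors, named after its values were seen, had one of -0.24 (limma adjusted p = 0.157), with all its CRB3-expressing arrays below the vector control arrays. The median of the list was 0.094.

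Ligands and receptors had 0 called genes by limma, and an unadjusted p under 0.05 was reached by 0 ligands and by 2 receptor or JAK-STAT genes (STAT3 and IFNGR2). For all genes, 1.43% were called higher and 0.465% lower, and at the unadjusted p 10.4% were higher and 1660 of 19775 lower. Over 17 interferon ligands other than IFNB1, group means ran from 3.23 to 6.69 in CRB3-expressing cells, against from 3.35 to 6.64 in vector control cells, and the log2 fold changes from -0.12 (IFNA1) to 0.16 (IFNA8), with a median of 0.038. Over 10 receptor and JAK-STAT genes the median was 0.0031, and the smallest p-values belonged to STAT3, a cytokine-activated transcription factor, at 0.20 (limma adjusted p = 0.113) and IFNGR2, a chain of the interferon gamma receptor, at -0.15 (limma adjusted p = 0.267). The 7 other IRF and IRF2-binding genes had 0 called by limma (1 lower at an unadjusted p under 0.05) and a median of 0.026. On their brightest probe sets IRF2BP2 was at -0.16 and IRF5 at 0.16 (limma adjusted p = 0.271 and 0.384). Other probe sets differed. IRF5 was at 0.31 on 239412_at, without overlap (limma adjusted p = 0.110), and at 0.060 on 205468_s_at. IRF2BP2 was at -0.11 on each of 224572_s_at, 224570_s_at and 224571_at, but at 0.12 on 225854_x_at and 0.074 on 227389_x_at.

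Downstream of the members more genes passed, most of them effectors. Of 28 interferon-stimulated effectors, 8 were called higher and 0 lower by limma, against 1.43% and 0.465% of all genes. At an unadjusted p under 0.05, 15 were higher and 1 lower, against 10.4% of all genes higher and 1660 of 19775 lower. The median of the effectors was 0.27. The highest were IFIT1 at 2.27 and IFIT3 at 1.24, and the lowest called were IFIT2 at 0.61 and IFITM1 at 0.63, on the brightest probe set of each. Other probe sets gave another order, with IFIT2 at 1.47 on 226757_at and IFIT3 at 0.60 on 204747_at, both called. The other 20 effectors were not called on their brightest probe sets. Among these, OAS1, OAS2, OAS3, MX1 and MX2 stood at -0.081, -0.065, -0.074, -0.0087 and -0.088, all with overlapping groups. Of the 28 effectors, 20 had a log2 fold change above 0. Of 13 negative regulators 1 was called, ISG15, a ubiquitin-like protein that is also an effector, at 8.30, 8.38 and 8.37 in CRB3-expressing cells, against 7.78, 7.69 and 7.71 in vector control cells (log2 difference 0.63, SE 0.062, limma adjusted p = 0.000598). Of 19 targets of IRF1 and interferon gamma, 1 was called: PSMB9, an immunoproteasome subunit, averaged 7.62 ± 0.13 in CRB3-expressing cells, against 6.93 ± 0.090 in vector control cells (SD, n = 3 each), a log2 fold change of 0.69 (limma adjusted p = 0.00185). The medians of these lists were 0.12 for negative regulators and 0.10 for the targets. The differences between lists were not tested.

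**Figure D4:**
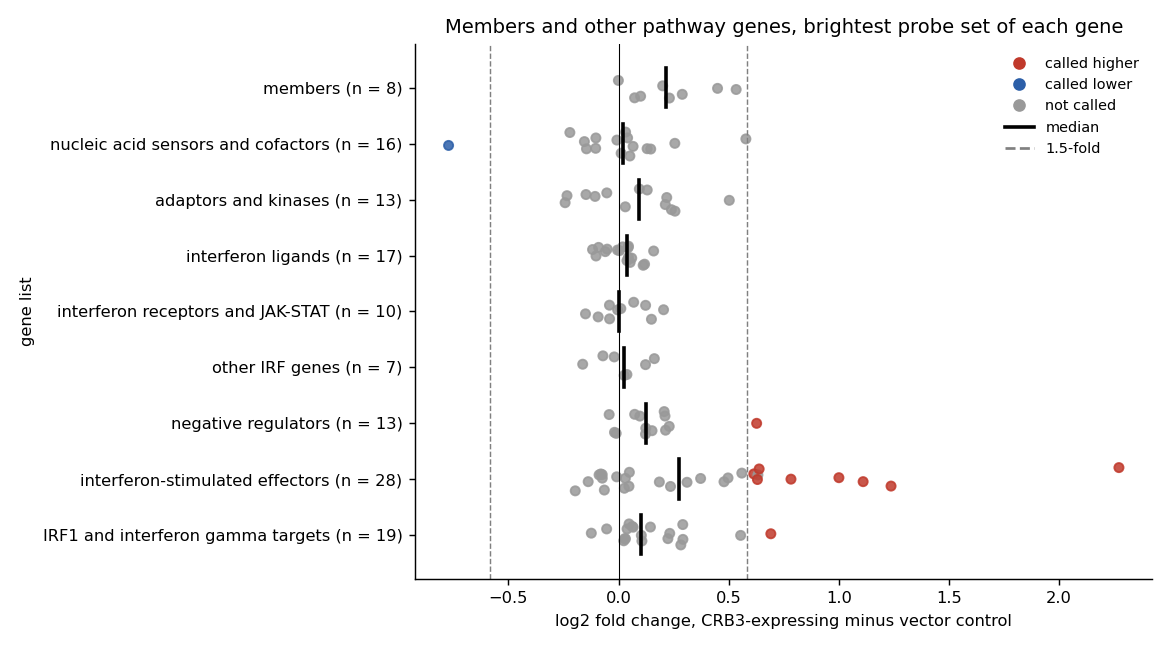
Difference in log2 value, CRB3-expressing over vector control, for the 8 member genes and of 123 other pathway genes in 8 lists, each gene by its brightest probe set, with black bars for list medians and dashed lines at a 1.5-fold change. Called genes are red (higher) or blue (lower, IFI16), and 8 of the 10 called higher are interferon-stimulated effectors.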

How the data were processed

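Gene expression was measured on Affymetrix U133 Plus 2.0 arrays. Per the methods, the authors ran Robust Multichip Average (background correction and normalization over the 6 arrays together) and deposited the resulting log2 values; versions are not given in the sources used here. These deposited log2 values were used unchanged. Such summarization compresses changes of dim probe sets, and 3 arrays per group limit the precision.

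Differences (CRB3-expressing minus vector control) were tested two-sided with limma 3.58.1 (R 4.3.3; lmFit, then eBayes, no covariate; statmod 1.5.0 for array weights), with Benjamini-Hochberg adjustment over 54613 probe sets; 62 control probe sets were left out. Thresholds followed the methods. Intervals are 95% and not adjusted. Names came from the platform annotation, checked against RefSeq (GRCh38.p14); 1801 probe sets with several symbols and 11721 with none entered the fit without a name. For values per gene, the brightest single-gene probe set (mean of the 6 arrays) was taken. Samples were grouped by their labels.

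The members and lists were chosen with earlier results of these data known. Genes named were all members; in each list every called gene up to 4 (2 highest, 2 lowest), or, with none called, the 2 with the smallest p-values; CRB3; and the 3 genes most like the member gene with the smallest p. Marker genes and genes outside this rule were named after their values were seen. The script was checked on simulated data. Alternatives were the replicate block, variance priors, array scaling, leaving out each array, filters on dim probe sets, array weights, fold thresholds and the choice of probe set.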

Additional observations from a re-analysis of the deposited data

How the results depend on the processing

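Of 202 alternative values for the 15 member probe sets, 190 kept their direction and their call, which takes the p and fold thresholds together. Taken alone, the adjusted p crossed 0.05 in 9 of the 202: 5 for IRF9 (down to 0.0181), and 1 each for IFIH1 219209_at (0.0361 without vector control replicate 3), RIGI 222793_at (0.0395 without CRB3-expressing replicate 2), RIGI 218943_s_at (0.147 without empirical Bayes) and IRF7 (0.0714 without empirical Bayes). RIGI 218943_s_at was no longer called in 3 of its 14 settings: without empirical Bayes, without CRB3-expressing replicate 3 and without vector control replicate 1. The remaining 9 were changes of sign of uncalled values near 0. Leaving out 1 array gave log2 fold changes of -0.035 to 0.21 for IFIH1 1555464_at, -0.039 to 0.17 for IFIH1 216020_at, -0.047 to 0.073 for TLR3 206271_at and -0.016 to 0.17 for IFNB1, and array weights gave 0.0099 for TLR3 206271_at. Leaving out 1 array also moved other uncalled values by over 1.5 times: RIGI 242961_x_at to 0.13 (without CRB3-expressing replicate 1), IRF1 202531_at to 0.11 (without vector control replicate 2) and 238725_at to 0.062 (without vector control replicate 1), IRF3 to 0.041 or 0.11 (without vector control replicate 3 or 1), TLR3 239587_at to 0.055 or 0.23 (without vector control replicate 1 or 2) and 242667_at to 0.035 or 0.17 (without CRB3-expressing replicate 1 or 2).

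Of the member probe sets, 1 was called; 0 were called without empirical Bayes, with a fold above 2 or with treat against a 1.5-fold change, 2 (RIGI and IRF7) with no fold threshold or a fold above 1.2, and 0 to 1 when leaving out 1 array. Of the member genes, 0 were called; 1 (IRF7) with no fold threshold or a fold above 1.2, and 1 (RIGI) with any probe set of the gene. Of the other pathway genes, 11 were called; 5 without empirical Bayes, 21 with no fold threshold, 21 with a fold above 1.2, 4 with a fold above 2, 3 with treat and 7 without the _x_at and _s_at probe sets, which also removes IRF7. Over all probe sets and all genes, 716 and 375 were called; 379 and 220 without empirical Bayes, 1985 and 1017 with no fold threshold, 1979 and 1013 with a fold above 1.2, 240 and 131 with a fold above 2, and 202 and 113 with treat.

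With the replicate block, 1 member probe set, 0 member genes, 12 pathway genes, 710 probe sets and 374 genes were called, and no member's call changed. Deviations of same-numbered arrays correlated at -0.085, 0.064 and 0.029, and those of arrays with different numbers at -0.19 to 0.16. Same-numbered arrays were thus no more alike than others, which cannot show whether the samples were prepared in pairs. The array number and the missing detection calls limit what can be said of the dim probe sets of IFNB1, IFIH1 and TLR3.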
